A study of Mus musculus with 6 samples.

Results

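The Fanconi anaemia genes described here are Fanca, Fancc, Fancd2, Fance, Fancf, Fancg, Fanci, Fancl, Fancm and Brip1. Every probe set whose platform annotation names exactly 1 gene, and that gene is one of these 10, was taken. All 10 genes were found, with 24 probe sets among the 45101 on the array. Fancd2 had 4 probe sets, Fancc, Fancf and Fancm had 3 each, Brip1 had 1 and the other 5 genes had 2 each. The measurement was messenger RNA in LSK cells, the lineage-negative, Sca-1-positive, Kit-positive fraction of marrow that contains blood stem cells and early progenitors. The cells were sorted from bone marrow of Tet1 KO and WT mice, all at 6 months of age and all on the strain written as CD57BL/6 in the labels. Tet1 encodes a dioxygenase that oxidises 5-methylcytosine in DNA. There were 3 Tet1 KO samples and 3 WT samples, with 1 array each. The labels state neither which exons the Tet1 KO allele lacks nor whether each sample is a single mouse. All p-values therefore rest on the spread among these 6 samples, which may be technical, and in sorted cells a smaller share of one cell type cannot be told apart from less RNA per cell. The title of the series concerns Tet1 as a suppressor of blood malignancy, and the comparison bears on whether transcripts of DNA crosslink repair differed between the genotypes.

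The Fanconi anaemia pathway repairs covalent links between the DNA strands, which block replication forks and transcription. A nuclear core complex, anchored at the stalled fork by FANCM, carries the ubiquitin ligase FANCL, which attaches a single ubiquitin to FANCD2 and FANCI. The modified pair then brings in nucleases, translesion polymerases and homologous recombination, where the helicase BRIP1, also known as FANCJ, acts with BRCA1. Inherited loss of many of these genes causes bone marrow failure and a high risk of leukaemia, and blood stem cells are among the cells most sensitive to it.

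Promoter windows of Fancc, Fancg and Fanci are shown as the genes that had a probe set without overlap between the groups, none of which passed the adjusted threshold. No value below was measured at a promoter. CpG dinucleotides, the sites at which TET enzymes chiefly act in mammals, are in capitals. Each window runs 5′ to 3′ on the gene's strand, from 250 bases before to 50 after a transcript start, from RefSeq on GRCm38.p6. The windows lie at chr13:63431696-63431995 (minus strand) for Fancc, chr4:43010252-43010551 (minus strand) for Fancg and chr7:79392088-79392387 (plus strand) for Fanci.
Fancc: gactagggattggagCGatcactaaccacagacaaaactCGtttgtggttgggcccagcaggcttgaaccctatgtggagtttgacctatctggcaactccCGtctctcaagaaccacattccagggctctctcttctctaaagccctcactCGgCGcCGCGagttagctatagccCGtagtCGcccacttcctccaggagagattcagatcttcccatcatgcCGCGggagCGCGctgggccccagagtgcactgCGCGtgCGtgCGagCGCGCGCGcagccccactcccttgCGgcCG
Fancg: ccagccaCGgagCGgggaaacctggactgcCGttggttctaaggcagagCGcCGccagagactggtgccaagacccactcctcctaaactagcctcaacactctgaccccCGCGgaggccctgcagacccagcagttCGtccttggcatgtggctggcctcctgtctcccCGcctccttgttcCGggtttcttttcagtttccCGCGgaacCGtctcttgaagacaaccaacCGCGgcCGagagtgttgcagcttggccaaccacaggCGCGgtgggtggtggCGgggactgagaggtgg
Fanci: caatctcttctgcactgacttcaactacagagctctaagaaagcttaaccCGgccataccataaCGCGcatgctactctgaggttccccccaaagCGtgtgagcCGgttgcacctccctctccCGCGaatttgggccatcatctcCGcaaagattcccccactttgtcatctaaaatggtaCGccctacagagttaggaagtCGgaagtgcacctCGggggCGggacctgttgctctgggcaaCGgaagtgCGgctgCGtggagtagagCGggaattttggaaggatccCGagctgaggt

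These windows held 23 CpGs for Fancc, 19 for Fancg and 17 for Fanci. Of the 10 genes, 9 had a promoter window, and Fancd2 was the other gene. Over the 9, the number of CpGs ran from 3 for Fancl to 26 for Fancm with a median of 21, against a median of 7 over all 32817 windows of the same length, which include non-coding genes. The Fancl window stood apart from the other 8, which held at least 17 CpGs. The letters CCAAT, read on both strands, occurred in 6 of the 9 windows (Fanca, Fancc, Fance, Fancf, Fancm and Brip1) and in 37.4% of all windows. The letters TTTGGCGC and TTTCGCGC, among the forms of the E2F site and read on both strands, occurred in 0 of the 9, against 0.515% and 0.323% of all windows. At shares so low, 0 of 9 says little. Other forms of the site were not counted, and the Fancg window above holds such a form, TTTCCCGC. A match in letters describes the window and shows no binding, and no methylation was measured here.

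Values are log2 probe set intensities as deposited, and levels of different probe sets are not set against each other. The targeted gene gave lower values on the knockout arrays: the brightest Tet1 probe set read 6.26, 5.63 and 5.51 in Tet1 KO, against 6.89, 6.80 and 6.75 in WT. Whether that probe set lies in the deleted part is not stated. Its difference was -1.01 (SE 0.22), with an unadjusted p of 0.0031 and an adjusted p of 0.686 in limma. The other Tet1 probe sets had the same adjusted p, so the targeted gene itself did not pass the adjusted threshold of 0.05. Medians differed by at most 0.0694 between arrays. As a guide to background, 27 bacterial control probe sets were used: the brightest on each array averaged 4.39. Tet1 KO replicate 2 stood apart from the other arrays, with a bacterial control at 4.87 against at most 4.37 elsewhere. That array gave the highest or the lowest of the 6 values at 60.5% of all probe sets, where the other 5 arrays gave it at 23.8% to 33.0%. Relative to WT, differences also followed expression level, with a median of 0.16 among the dimmest 25% of probe sets and -0.12 among the brightest 25%. The 3′ minus 5′ difference of the Gapdh controls, a sign of RNA quality, was 1.76, 1.22 and 1.90 in Tet1 KO, against 1.47, 1.36 and 1.57 in WT. The labels name a whole-transcript labelling kit while the probe sets carry the names of a 3′ array, so how far this difference reads RNA quality is not settled. Replicate 3 of each group had low Xist (3.82 in Tet1 KO and 4.58 in WT, at least 11.78 elsewhere). The LSK markers had 10 of 10 measured genes above the control level, Kit and Cd34 among them, while Ly6a was not analysed here. Tet1 KO had the higher mean at 3 of these 10 and the lower at 7, with Gata2 at -0.66 (SE 0.26) and its groups separate. Of lineage markers, 3 of 5 B-cell, 2 of 5 T- and NK-cell, 8 of 9 myeloid and 4 of 6 erythroid genes were above it, among them S100a8 at 9.02 and Lyz2 at 10.27 over 6 arrays. The B-cell marker Pax5 was higher by 0.42 (SE 0.15) and the T-cell marker Cd8a by 0.53 (SE 0.21), both with separate groups. Of the B-cell list, 3 genes were higher and 2 lower, with Cd79b at -0.42 (SE 0.26). Of the T- and NK-cell list, 4 were higher and 1 was lower, Nkg7 at -0.16 (SE 0.37). Gata2, Pax5 and Cd8a, chosen after their values were seen, had unadjusted p-values under 0.05 and adjusted p-values of 0.686 in limma. Their part in the values below was not tested.

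Transcripts of the Fanconi anaemia genes showed no difference between Tet1 KO and WT that passed correction for multiple testing. Of the 24 probe sets, 13 were higher and 11, or 45.8%, lower in Tet1 KO, where 42.9% of all 45037 non-control probe sets were lower. In limma, with Benjamini-Hochberg adjustment, 0 of 24 passed 0.05, where 0% of all probe sets passed, and their adjusted p-values ran from 0.686 to 0.991. At an unadjusted p under 0.05 there were 2 of 24, or 8.33%, beside 6.81% of all probe sets. These were 1 probe set of Fancc, on the higher side, and 1 of Fanci, on the lower side. With an intensity trend in limma 0 of 24 had an unadjusted p under 0.05, beside 7.27% of all probe sets. In that fit 0 of 24 passed the adjusted threshold, where 1 probe set of the whole array did. Groups were fully separate at 4 of 24, or 16.7%, beside 16.2% of all probe sets. Both shares were near those of the whole array. The median difference over the 24 was 0.02, against 0.06 over all probe sets, and under other processing it ran on both sides of 0. On average 19 of the 24 read above the bacterial control level, and all 10 genes had at least 1 such probe set. Of these 19, 7, or 36.8%, were lower in Tet1 KO, where 54.7% of all probe sets above that level were lower.

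**Figure D1:**
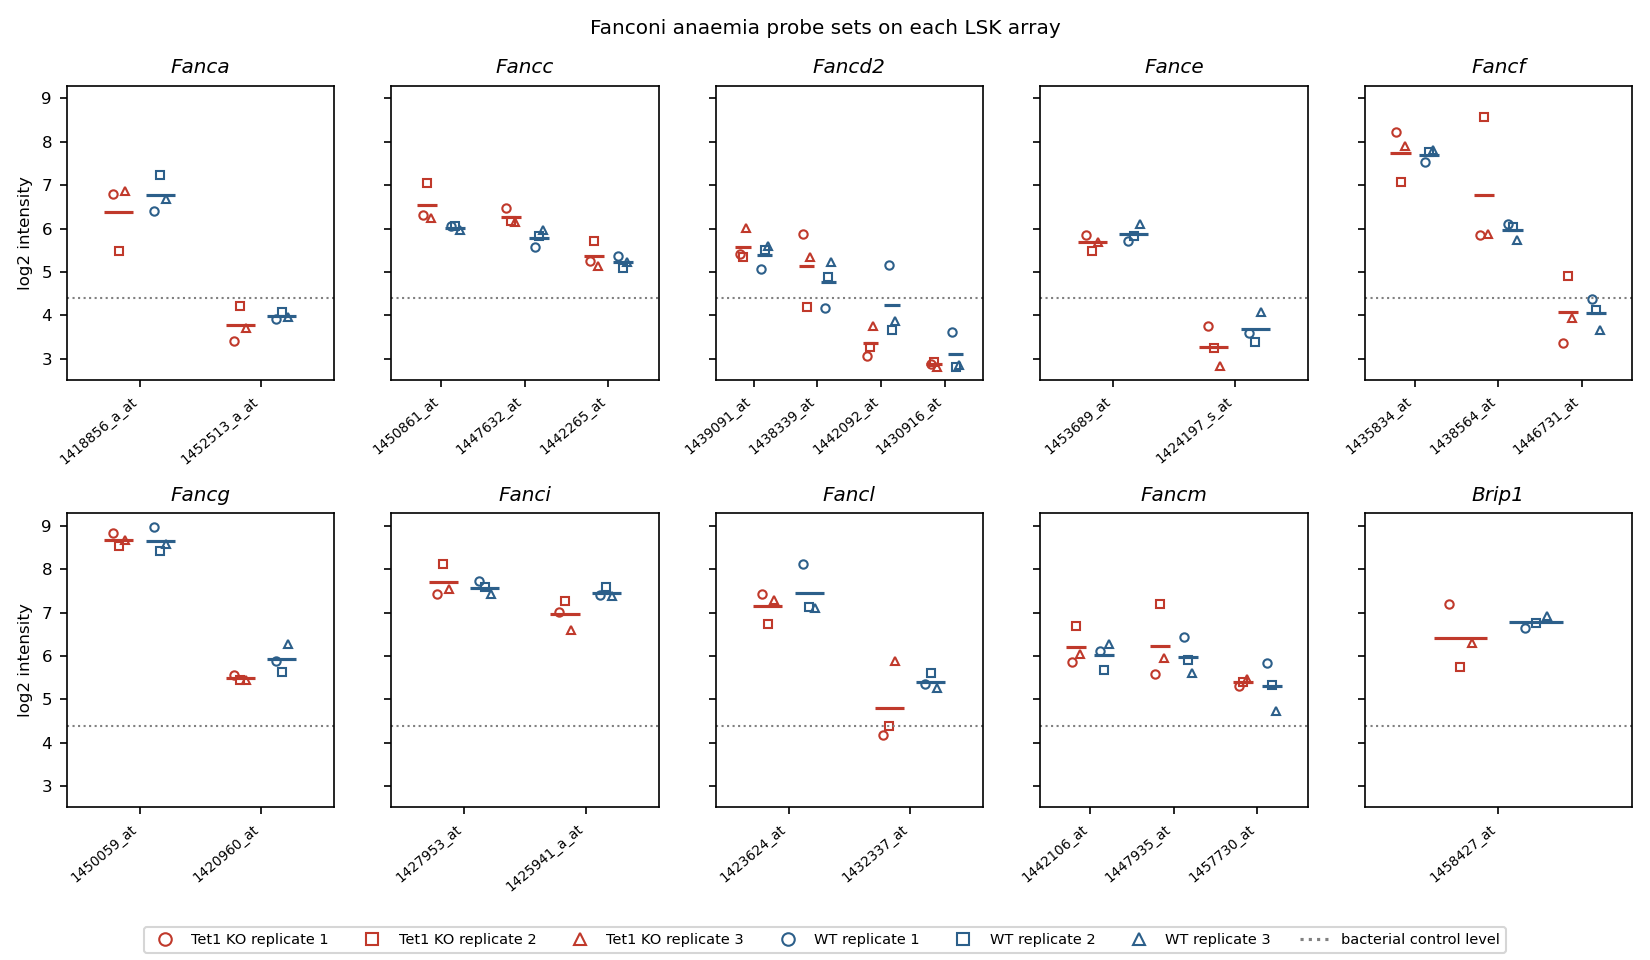
Each point is 1 array, on the log2 intensity axis, with Tet1 KO left of WT at every probe set of the 10 genes, bars for the group means and a dotted line at the bacterial control level of 4.39. The groups overlap at 20 of 24 probe sets, and the square for Tet1 KO replicate 2 lies away from its group at Fanca, Fancc and Fancf.

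**Figure D2:**
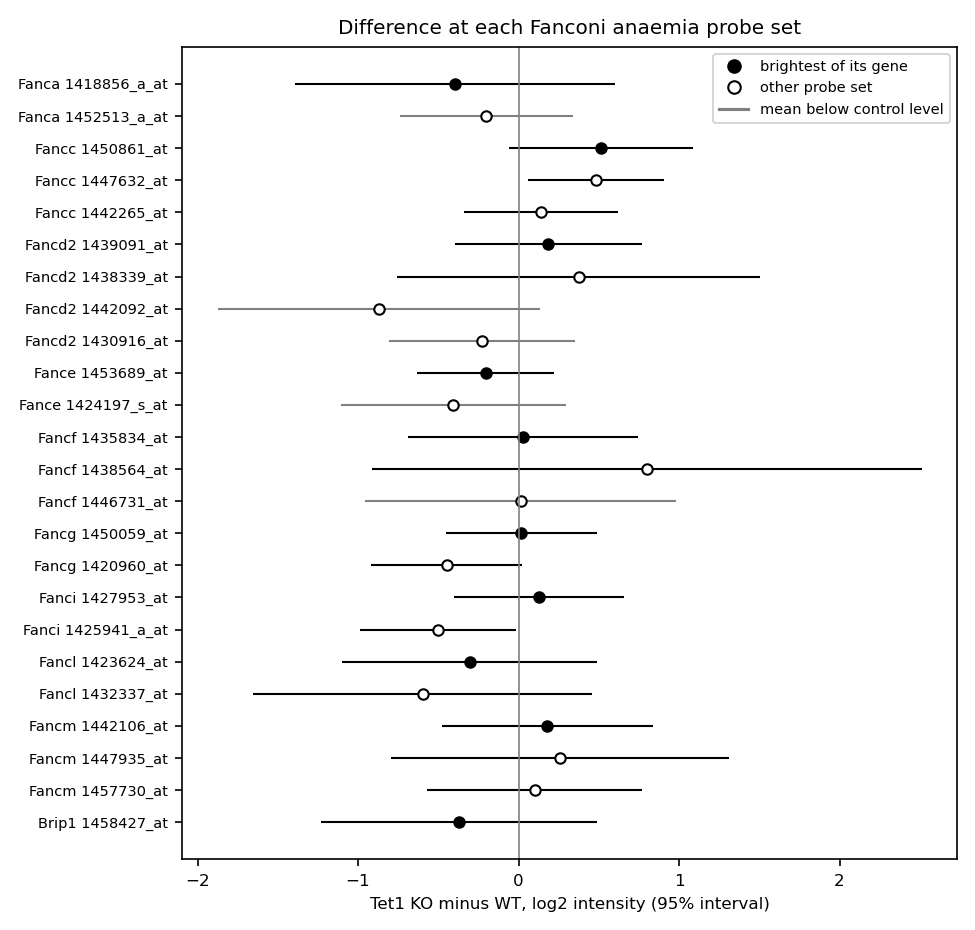
Differences of Tet1 KO minus WT in log2 intensity with 95% intervals of the moderated fit, n = 3 arrays per group, for all 24 probe sets. The interval covers 0 at 22 of them.

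How much could have been missed varied by gene. The 95% interval of the difference stayed within 1 on the log2 scale in both directions at 14 of 24 probe sets, so that a doubling lay outside it there, and at 6 of 10 genes when the brightest probe set is taken. The standard errors ran from 0.18 for a Fancc probe set to 0.72 for a Fancf probe set, with a median of 0.28, against 0.22 over all probe sets. Within groups the median SD of the 24 was 0.39 in Tet1 KO and 0.28 in WT, and 0.30 and 0.17 over all probe sets. The Tet1 KO arrays spread more than the WT arrays at 16 of the 24, or 66.7%, and at 71.9% of all probe sets.

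Within the core complex, FANCC, FANCE and FANCF form a module that links the ligase to its substrate. At 2 of its 3 probe sets, all Tet1 KO values of Fancc exceeded all WT values. Its brightest, 1450861_at, read 6.32, 7.05 and 6.25 in Tet1 KO, against 6.06, 6.06 and 5.96 in WT. The highest of these was again Tet1 KO replicate 2, and the WT arrays lay close together. The difference was 0.51 (SE 0.24; 95% interval -0.06 to 1.09), with an adjusted p of 0.686 in limma, and it was 0.26 without Tet1 KO replicate 2. The second probe set, 1447632_at, read 6.47, 6.18 and 6.16 in Tet1 KO, against 5.57, 5.83 and 5.96 in WT. Here Tet1 KO replicate 2 sat between the other arrays of its group. The difference was 0.48 (SE 0.18; interval 0.06 to 0.91), with an unadjusted p of 0.031 in limma and an adjusted p of 0.686, and 0.53 without that array. Across the 14 other settings that tested this probe set the difference kept its direction and ran from 0.37 to 0.57, with an unadjusted p under 0.05 in 8 of them. The remaining 1442265_at overlapped between the groups at 0.14 (SE 0.20), and at -0.04 without Tet1 KO replicate 2. The difference at the second probe set minus that at the first was -0.03.

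Fance was lower in Tet1 KO at both probe sets without passing the test. The brighter one, 1453689_at, read 5.86, 5.49 and 5.70 in Tet1 KO, against 5.71, 5.84 and 6.10 in WT, and the groups overlapped. Its difference was -0.20 (SE 0.18), and -0.09 without WT replicate 3. The other probe set, whose suffix _s_at marks probes shared between transcripts of different genes, was below the control level in both groups.

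Fancf differed from array to array more than between genotypes. The probe set 1435834_at read 8.22, 7.08 and 7.90 in Tet1 KO, against 7.54, 7.76 and 7.81 in WT. Tet1 KO arrays were both the highest and the lowest, and the difference was 0.03 (SE 0.30; interval -0.69 to 0.74). At 1438564_at, 1 array decided the value: Tet1 KO replicate 2 read 8.57, while replicates 1 and 3 read 5.86 and 5.87, against 6.11, 6.03 and 5.74 in WT. The difference there was 0.80 (SE 0.72) with all arrays and -0.10 without Tet1 KO replicate 2. The array that was highest at this probe set was thus the lowest at 1435834_at. The last probe set, with a mean below the control level in both groups, gave 0.015. Tet1 KO replicate 2 read above that level there, at 4.90.

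FANCA and FANCG form a second module of the core complex. Fanca at 1418856_a_at read 6.81, 5.49 and 6.85 in Tet1 KO, against 6.42, 7.24 and 6.68 in WT. A single low array, Tet1 KO replicate 2, set the lower mean, and the other 2 Tet1 KO arrays lay inside the WT range. The difference was -0.40 (SE 0.42), and 0.05 without that array. The other Fanca probe set read below the control level in both groups.

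Fancg had one of the smallest differences, with a narrow interval, at its brighter probe set. There, 1450059_at read 8.84, 8.53 and 8.66 in Tet1 KO, against 8.98, 8.41 and 8.59 in WT. The groups overlapped almost fully, with a difference of 0.02 (SE 0.20; interval -0.45 to 0.49). The second, 1420960_at, went lower: it read 5.56, 5.44 and 5.44 in Tet1 KO, against 5.89, 5.63 and 6.27 in WT. The Tet1 KO values were all lower than the lowest WT value, at a difference of -0.45 (SE 0.20; interval -0.92 to 0.02) and an adjusted p of 0.686 in limma. It was -0.28 without WT replicate 3, the highest array. The difference at the second probe set minus that at the first was -0.46, with an exact two-sided permutation p of 0.2 (adjusted p 0.9), where 0.1 is the smallest p that 3 against 3 allows, so that the probe sets were not shown to differ.

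Fancl, the ubiquitin ligase of the complex, gave lower means at both probe sets with overlapping groups. At 1423624_at it read 7.42, 6.73 and 7.29 in Tet1 KO, against 8.12, 7.12 and 7.11 in WT. WT replicate 1 was the highest array, and the difference of -0.30 (SE 0.33) became 0.03 without it. At 1432337_at the values were 4.18, 4.38 and 5.88 in Tet1 KO, against 5.36, 5.62 and 5.26 in WT. The 2 lowest Tet1 KO values were below the control level, and Tet1 KO replicate 3 was above all WT arrays. The difference was -0.60 (SE 0.44), with an unadjusted p of 0.221 in limma. It was -1.13 without Tet1 KO replicate 3, the lowest of all settings that tested this probe set. There its unadjusted p was 0.0013 and its adjusted p 0.551 in limma, where 8.61% of all probe sets had an unadjusted p under 0.05. That small p rests on leaving out the 1 Tet1 KO array above WT.

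Fancm, the DNA translocase that anchors the complex, overlapped between the groups at all 3 probe sets. The brightest, 1442106_at, read 5.86, 6.70 and 6.05 in Tet1 KO, against 6.12, 5.68 and 6.27 in WT, with a difference of 0.18 (SE 0.28; interval -0.48 to 0.84). The differences at the others were 0.26 (SE 0.44) and 0.10 (SE 0.28). All 3 were positive, but each turned negative without 1 array: at -0.07 and -0.21 without Tet1 KO replicate 2 for the first and second, and at -0.18 without WT replicate 3 for the last.

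FANCD2 and FANCI are the paired substrates of the ligase. Fanci read 7.43, 8.13 and 7.55 in Tet1 KO at 1427953_at, against 7.73, 7.58 and 7.42 in WT. Apart from Tet1 KO replicate 2 the arrays overlapped, and the difference was 0.13 (SE 0.22; interval -0.40 to 0.66). At 1425941_a_at it read 7.01, 7.27 and 6.61 in Tet1 KO, against 7.41, 7.59 and 7.39 in WT. Here the groups were separate with Tet1 KO lower, at a difference of -0.50 (SE 0.20; interval -0.99 to -0.01), an unadjusted p of 0.0456 in limma and an adjusted p of 0.686. The difference was -0.32 without Tet1 KO replicate 3 and -0.65 without replicate 2. Across the 14 other settings that tested this probe set it kept its direction, with an unadjusted p under 0.05 in limma in 3 of them. The difference at this probe set minus that at the first was -0.63, with an exact two-sided permutation p of 0.1, the smallest possible. Over the 9 genes with more than 1 probe set, its adjusted p was 0.9. This test could not have passed 0.05, so it does not decide whether these probe sets differ. The suffix _a_at marks probes shared between transcripts of the same gene.

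Fancd2 had 2 probe sets above the control level, both overlapping. At 1439091_at it read 5.41, 5.34 and 6.00 in Tet1 KO, against 5.08, 5.52 and 5.60 in WT, a difference of 0.19 (SE 0.24). At 1438339_at it read 5.87, 4.20 and 5.33 in Tet1 KO, against 4.16, 4.88 and 5.24 in WT, a difference of 0.37 (SE 0.47), which came to 0.01 when Tet1 KO replicate 1 was left out and to 0.84 when replicate 2 was. In each group 1 array lay under the control level there, Tet1 KO replicate 2 and WT replicate 1. The remaining 2 probe sets had means below that level in both groups and were lower in Tet1 KO, at -0.87 (SE 0.42) and -0.23 (SE 0.24). WT replicate 1 was the highest array at each, and at the former it read 5.17, above that level. Without that array the differences were -0.40 and 0.04.

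Brip1, which encodes a helicase that unwinds DNA during repair, was covered by 1 probe set. It read 7.19, 5.74 and 6.29 in Tet1 KO, against 6.65, 6.76 and 6.93 in WT. The WT arrays lay close together, with Tet1 KO arrays on both sides of them. The difference was -0.37 (SE 0.36; interval -1.23 to 0.49), with an adjusted p of 0.731 in limma. Leaving out Tet1 KO replicate 1 gave -0.77, and leaving out replicate 2 gave -0.04.

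**Figure D3:**
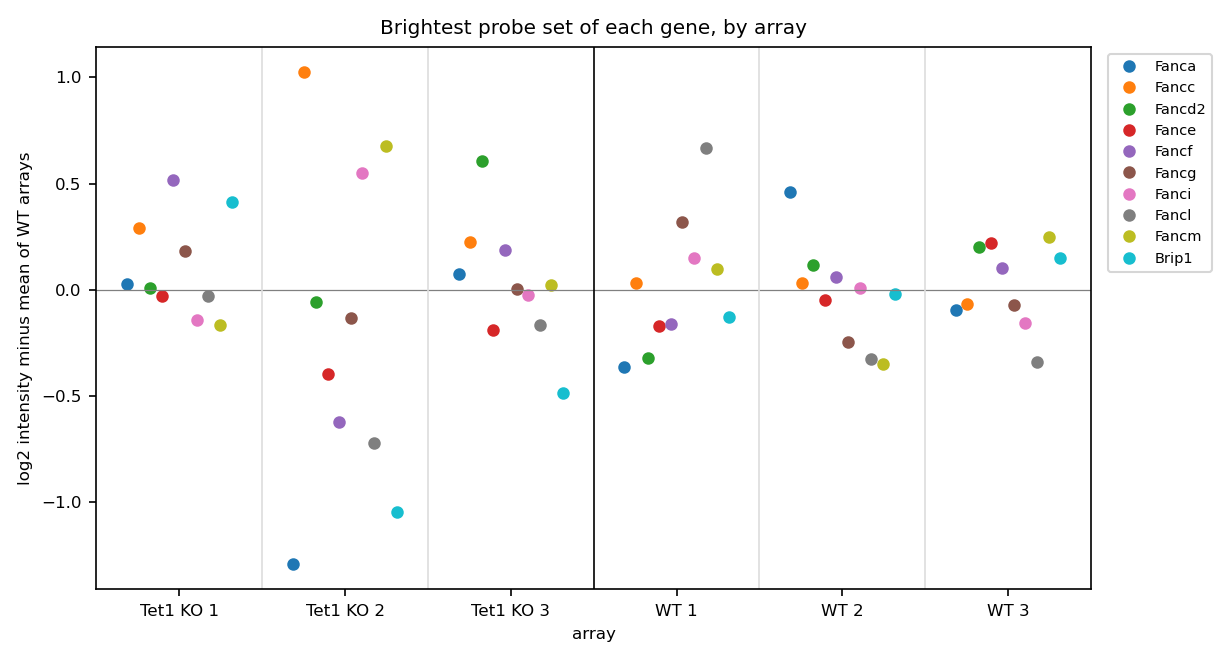
Log2 intensity of the brightest probe set of each gene minus its mean over WT arrays, by array. On Tet1 KO replicate 2 Fancc, Fancm and Fanci are high and Fanca, Brip1, Fancl and Fancf are low, so the genes did not move as 1 group on that array.

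Among the 24 probe sets, Tet1 KO replicate 2 was the highest array at 8 and the lowest at 6, 58.3% in all, close to its 60.5% over all probe sets. Set against WT, the median of the brightest probe sets of the 10 genes was 0.02 on Tet1 KO replicate 1, -0.26 on replicate 2 and 0.01 on replicate 3. Over all genes on replicate 2 it was 0.12, and -0.05 over genes above the control level. Of the 9 genes with more than 1 probe set, 6 had all probe sets on the same side of 0 and 3 (Fancd2, Fancg and Fanci) had them on both sides. Set against probe sets of like level, 1 of 24 differences was above the 95th percentile, at Fancf 1438564_at. Below the 5th were 2, at Fancd2 1442092_at and Fance 1424197_s_at, both with means below the control level.

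**Figure D4:**
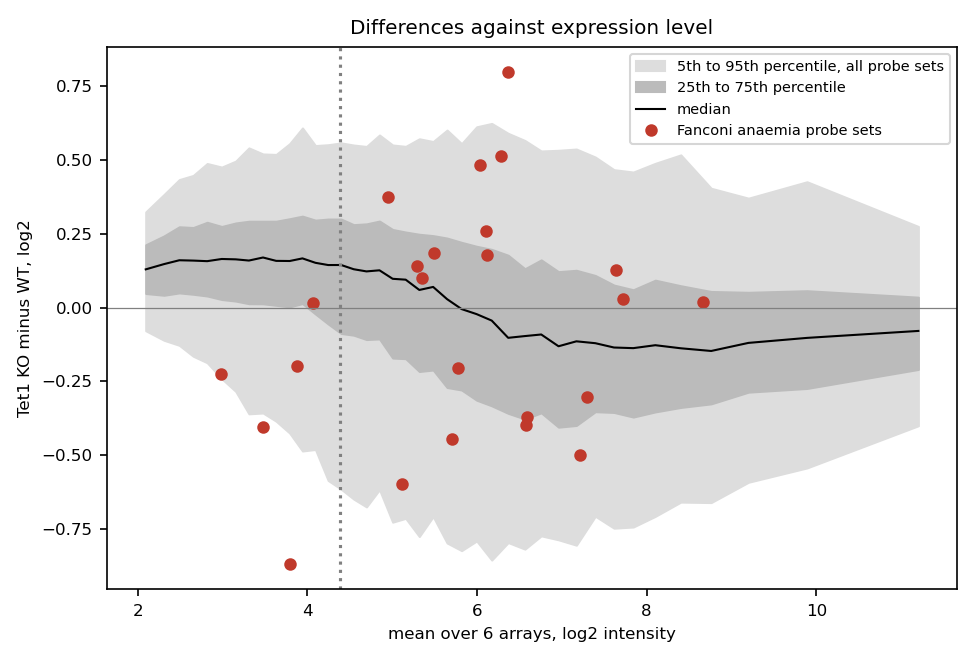
Difference of Tet1 KO minus WT against mean log2 intensity over 6 arrays, with red points for the 24 probe sets, grey bands for percentiles of all probe sets and a dotted line at the control level of 4.39. The black median line of all probe sets runs above 0 at low level and below 0 at high level, and the red points lie on both sides of it.

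The genes with the most similar course over the 6 arrays were sought for 4 members at the brightest probe set of each gene above the control level, by the root mean square difference of centred log2 values. For Fanca they were Zfp160 (0.08) and Snx16 (0.11), and for Brip1 Ifih1 (0.08) and Fosl2 (0.09). For Fanci they were Cacng1 (0.02) and Slc51b (0.04), and for Fancd2 Pde3b (0.04) and Adgrl2 (0.06). None of these 8 was another Fanconi anaemia gene. With 12963 genes searched over 6 arrays, such nearness describes these arrays only.

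Partners of the pathway were read at the brightest probe set of each gene, where 6.73% of all 18193 genes had an unadjusted p under 0.05 and 17.1% did not overlap between groups. Of 13 core complex genes, members included, 5 were higher and 8 lower, with 0 at an unadjusted p under 0.05 and 0 at the adjusted threshold in limma. After Fancc, the smallest p-values were those of Faap24 and Faap20, small subunits that partner FANCM and FANCA. Faap24 read 5.56, 6.66 and 6.63 in Tet1 KO, against 6.74, 7.28 and 6.80 in WT. Faap20 read 8.14, 6.95 and 8.24 in Tet1 KO, against 8.31, 8.26 and 8.71 in WT. Neither overlapped between groups, at -0.66 (SE 0.34) and -0.65 (SE 0.36), and in each 1 Tet1 KO array lay far below the others.

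The group of FANCD2, FANCI, the enzymes that add and remove their ubiquitin and the nucleases they bring in had 9 measured genes, of which 6 were higher and 3 lower, again with 0 at either threshold in limma. Slx4, the nuclease scaffold, differed by 0.43 (SE 0.26), Mus81, a nuclease subunit, by 0.63 (SE 0.48), and Wdr48, the cofactor of the deubiquitinase USP1, by -0.48 (SE 0.33). In all 3, Tet1 KO replicate 2 was the array farthest from the rest, at 7.45 for Slx4, 8.41 for Mus81 and 8.16 for Wdr48. Of 7 recombination genes 1 was higher and 6 lower, with 0 at either threshold. Bard1, the partner of BRCA1, differed by -0.48 (SE 0.24) and Brca2, which loads the recombinase, by -0.17 (SE 0.28).

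Of 6 translesion synthesis genes, 3 were higher and 3 lower, with 2 at an unadjusted p under 0.05 and 0 at the adjusted threshold in limma. Rev1, a polymerase and scaffold of lesion bypass, read 5.96, 5.61 and 5.94 in Tet1 KO, against 6.13, 6.37 and 6.44 in WT, without overlap, at -0.48 (SE 0.17). Mad2l2, which encodes REV7, read 8.06, 6.94 and 6.90 in Tet1 KO, against 8.48, 8.06 and 8.02 in WT, at -0.89 (SE 0.34). Both adjusted p-values were 0.686. Poln, at 0.52 (SE 0.23), read below the control level in both groups.

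All 5 aldehyde clearance genes, which remove a source of crosslinks, had negative differences, with 0 at either threshold in limma. These were -0.55 (SE 0.27) for Aldh1a1, -0.33 (SE 0.21) for Aldh3a2 and -0.13 (SE 0.14) for Adh5. Aldh9a1 was at -0.07 (SE 0.32) and Aldh2 at -0.002 (SE 0.50), near 0. The median of the list was -0.13, and 54.4% of all genes above the control level were lower. Other scalings were not run for this list, whose genes all read above 7 on the log2 scale, where differences of all probe sets also tended below 0.

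Many repair genes follow the cell cycle, and cycle genes are given beside them. Of 24 S phase genes, 12 were higher and 12 lower with a median of -0.02 and 0 at an unadjusted p under 0.05. Pcna, the sliding clamp, averaged 11.52 ± 0.27 in Tet1 KO and 11.81 ± 0.05 in WT (SD, n = 3 each). Of 17 mitosis genes, 10 were higher and 7 lower with a median of 0.01. The proliferation marker Mki67 averaged 11.11 ± 0.12 in Tet1 KO and 10.88 ± 0.30 in WT, and Top2a averaged 9.24 ± 0.41 in Tet1 KO and 9.24 ± 0.18 in WT. Cdk1, the mitotic kinase, was the 1 mitosis gene at an unadjusted p under 0.05, at -0.76 (SE 0.19), an unadjusted p of 0.00523 and an adjusted p of 0.686 in limma. It is named after its values were seen.

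**Figure D5:**
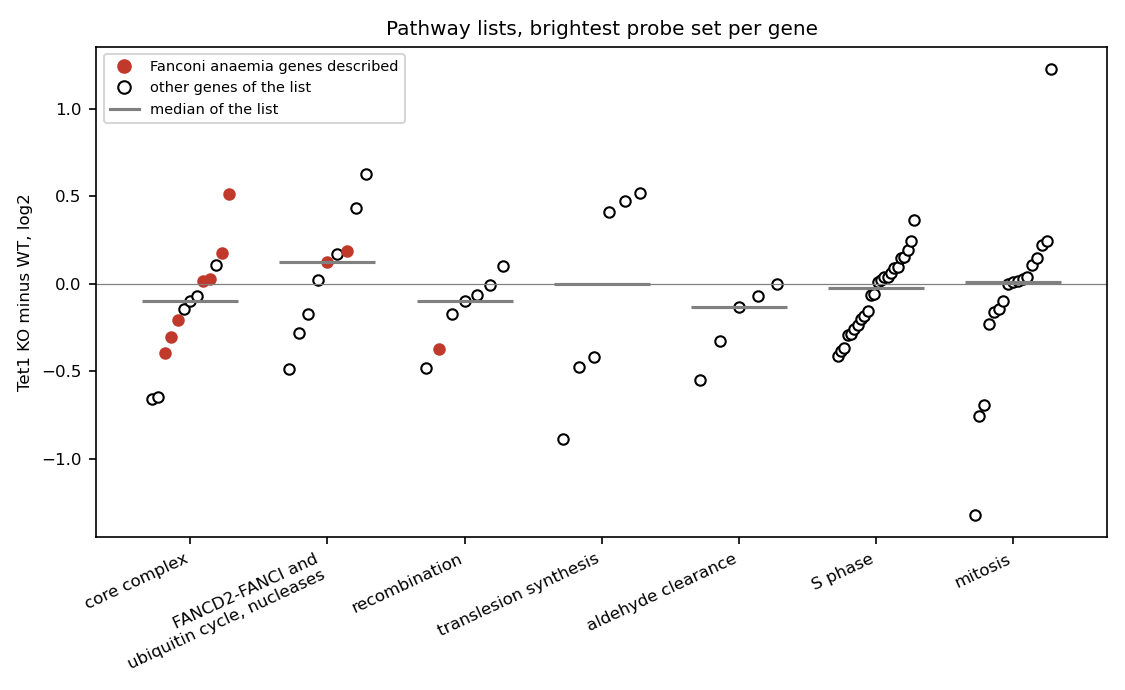
Difference of Tet1 KO minus WT in log2 intensity for each gene of 7 lists, at its brightest probe set, with red points for the Fanconi anaemia genes described, open points for the others and a bar for the list median. List medians run from -0.13 for aldehyde clearance to 0.13 for the FANCD2 and FANCI group.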

How the data were processed

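Total RNA from sorted LSK cells of 3 Tet1 KO and 3 WT samples was hybridised to Affymetrix arrays. Labelling started with 125 ng, per the labels' protocols. The deposited table held 45101 probe sets on a log2 scale, which was read from the values. The authors' background correction, normalization and summarization are not given in the sources used here. All columns matched a sample, and groups and replicate numbers came from the titles. Probe sets were named by the platform annotation, and symbols by gene identifier in RefSeq (GRCm38.p6), which held all 10 genes.

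The 45037 probe sets that are not Affymetrix controls were analysed in R 4.3.3 by lmFit and eBayes of limma 3.58.1, genotype as the only term, two-sided, with Benjamini-Hochberg adjustment over all of them and a threshold of 0.05. The fit was tested on simulated data, drawn with the same spread in both groups. That test did not cover the larger spread of the Tet1 KO arrays. No filter on dim probe sets was applied. A gene with several probe sets was given at each, or at the one brightest over 6 arrays. Named were all probe sets of the 10 genes, Tet1, the 3 smallest p-values of each partner list, the nearest genes and 3 cycle genes (Pcna, Mki67 and Top2a). Cdk1, Gata2, Pax5, Cd8a, Cd79b, Nkg7, S100a8, Lyz2, Aldh9a1 and Aldh2 are outside this rule. Members, lists and tests were chosen with earlier results of these data known. The correlation of deviations between same-numbered arrays was 0.01, -0.01 and 0.00, so numbers were not taken to pair samples. There were 16 alternative settings. Figures were drawn with matplotlib 3.10.9. The number of arrays limits the precision.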

Additional observations from a re-analysis of the deposited data

How the results depend on the processing

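The count of Fanconi anaemia probe sets past the adjusted threshold was 0 under all 16 alternatives, and Tet1 kept its direction in each, from -1.24 to -0.87 when 1 array was left out. At an unadjusted p under 0.05 there were 2 of 24 in the fit described, beside 6.81% of all probe sets. The count was 1 of 24 with quantile normalization (5.57% of all), cyclic loess (5.65%), arrays shifted to the same median (6.41%) and the replicate block (5.32%). Only probe sets above the control level gave 1 of 19 (5.95%), and probe sets averaged per gene gave 1 of 10 (7.95% of genes). With the brightest probe set per gene there were 0 of 10 (7.21% of genes). An intensity trend gave 0 of 24 (7.27%), also when robust (7.17%), and array weights gave 2 of 24 (7.53%). With 1 array left out the count ran from 0 to 3 of 24, and the share of all probe sets from 3.46% to 10.3%. The median difference became 0.10 above the control level, -0.20 with probe sets averaged per gene and -0.092 with array weights, was -0.03 with cyclic loess, and ran from -0.14 to 0.032 without 1 array. With such averages Fancd2 was -0.13, Fancg -0.21 and Fanci -0.19, and Fanci was -0.024 with array weights. Without 1 array Fanca ran from -0.63 to 0.051 (without Tet1 KO replicate 2), Fancd2 from -0.025 (without Tet1 KO replicate 3) to 0.31, Fancf from -0.22 to 0.35, Fancg from -0.10 to 0.18, Fanci from -0.083 (without Tet1 KO replicate 2) to 0.26, Fancl from -0.47 to 0.029 (without WT replicate 1) and Fancm from -0.072 (without Tet1 KO replicate 2) to 0.35. At the brightest probe set Fancc, Fance and Brip1 kept their direction in all settings, although Fance came to -0.094 without WT replicate 3 and Brip1 to -0.037 without Tet1 KO replicate 2. The cause of these changes was not tested. Same-numbered samples share a number, and those numbered 3 also low Xist and high Eif2s3y, but their deviations did not correlate. The block on the number changed no adjusted call, and no block on Xist was run. With 3 arrays per group, a probe set whose interval reaches 1 on the log2 scale leaves a doubling undetermined.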
